A study of Mus musculus with 3 samples.

Results

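Foxd1, Foxc1, Foxc2, Tcf21, Meis1 and Meis2 are transcription factors known from the stroma of the developing kidney, the loose mesenchyme that surrounds the nephron progenitors and the branching ureteric bud. Their messages were measured in kidney rudiments of Fgfrl1-/- mouse embryos and of wildtype embryos. The probes were chosen by the gene name that the array files give them. Under these names, 7 probes of 5 genes were found, and no probe was listed as Meis2. A further 3 probes carry the older name Mrg1 and were assigned to Meis2, 2 by their RefSeq accession and 1 by its RIKEN clone name, so that 10 probes of 6 genes are described. Mrg1 is also an older symbol of Cited2, so the probe assigned by its clone name, called Meis2 probe a below, is less certain than the others. The arrays hold 41174 probes in all, of which 33253 were assigned to 19772 genes.

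All embryos were C57BL/6 at E12.5 and differed in genotype, either Fgfrl1-/-, which lack a receptor-like relative of the FGF receptors, or wildtype littermates. The sources used here name no tissue to which the loss of Fgfrl1 was restricted and no other allele or agent in either group. RNA was prepared from pools of 6 to 9 rudiments. On each of 3 Agilent arrays, 1 Fgfrl1-/- pool labelled with Cy3 was hybridized against 1 wildtype pool labelled with Cy5, so that 6 pools were compared in 3 pairs. The dyes were swapped on 0 arrays, and an effect of the dye cannot be told apart from an effect of the genotype. The sources used here do not say whether the pools came from separate litters, and the p-values measure only the spread between these pools.

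Stromal cells supply signals to the nephron progenitors that they enclose. Foxd1 is the defining factor of the cortical stromal progenitors, and embryos without it form few nephrons. Foxc1 and Foxc2 are close forkhead relatives that act together in the early mesoderm and limit the place where the ureteric bud grows out. Tcf21 is a basic helix-loop-helix factor of stroma and podocyte precursors, which pairs with E proteins. Meis1 and Meis2 are homeodomain proteins of the TALE class, which bind DNA with partner proteins, and Meis1 is used as a general marker of renal stroma.

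The probes are 60 bases long. The first 30 bases of each are shown, 5′ to 3′ as in the array files, because the results turn on which message each probe reads and because probes of the same gene gave different ratios. No part of them is set in capitals, as no motif was sought in a probe.
Foxd1 probe a: tctccaagaaatgcctctacttgttcacac
Foxd1 probe b: gaaataagtcgaaatttaccatttcctatt
Foxc1 probe: gttacggaccaaacaccagaaagtgttcca
Foxc2 probe: cacaccaaaagactttaaaatttcaatctc
Tcf21 probe: ttatggtggccggcaaaccagagaatgacc
Meis1 probe a: gagaaggaggatcaaaatcagacagtgaag
Meis1 probe b: gacaggaaggtctgatttgcaggattttta
Meis2 probe a: agaatgactcttcggtttctagctaccagt
Meis2 probe b: agttattcatggtcgttgcaccataagtag
Meis2 probe c: aaggagcaagagaatactgtaacaaacttc

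The files place these probes on mouse genome build mm8, and no gene annotation of that build was used, so exons and introns are not named. The Foxd1 probes lie at chr13:99456571-99456630 and chr13:99456654-99456713 on the plus strand and start 83 bases apart. The Foxc1 probe lies on the same chromosome at chr13:31816853-31816912, and the Foxc2 probe at chr8:124004770-124004829, both on the plus strand. The Tcf21 probe lies at chr10:22507173-22507232 on the minus strand. The Meis1 probes, a at chr11:18911247-18911306 and b at chr11:18781206-18781265, start 130041 bases apart on the minus strand. Meis2 probes b and c lie next to each other without sharing a base, at chr2:115554835-115554894 and chr2:115554771-115554830, whereas probe a, the one assigned by its clone name, lies at chr2:115687533-115687592. The first and the last of the Meis2 probes start 132762 bases apart, all on the minus strand. Each of the 10 probes was compared with all others for a shared run of 15 bases. Only the Foxc1 probe shared such a run with a probe of another transcript, AK037439.

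Every value below is a log2 ratio of Fgfrl1-/- over wildtype within an array, or a log2 level of one channel, both after background correction and loess normalization. Loess sets the average ratio at each brightness to about 0, so a ratio is relative to probes of like brightness. All 10 probes were well above background in both channels on all 3 arrays, and none of their spots was saturated or marked as an outlier. Array 1 lay on a slide of its own and stood apart. Across all probes, its ratios correlated with those of arrays 2 and 3 at Pearson's r = 0.106 and 0.222, whereas arrays 2 and 3, which shared a slide, correlated at 0.713. The share of probes well above background was 57.1% to 80.2% in the Fgfrl1-/- channels and 60.9% to 65.0% in the wildtype channels. The single probe of Fgfrl1, at chr5:108946807-108946866 of mm8, gave ratios of -1.21, -1.51 and -1.83 on arrays 1, 2 and 3, with a mean of -1.52 ± 0.31 (SD, n = 3) and an adjusted p = 0.0332 in the limma fit, in the direction of the labels.

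Foxd1 and Foxc1 messages were higher in the Fgfrl1-/- rudiments, by 1.72-fold at Foxd1 probe b and by 1.64-fold at the Foxc1 probe. In the limma fit over all probes, these were the 2 stromal factor probes with an adjusted p below 0.05, and 0 of the 10 were called lower. The same threshold was passed by 119 of the 41174 probes in the higher direction (0.289%) and by 164 in the lower direction (0.398%). Without adjustment, a p below 0.05 was found at 6 of the 10 probes in the higher direction and at 1, that of Tcf21, in the lower direction, beside 3165 (7.69%) and 3376 (8.20%) of all probes. In such whole rudiments, fewer or more cells of a type and less or more RNA per cell cannot be told apart.

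**Figure D1:**
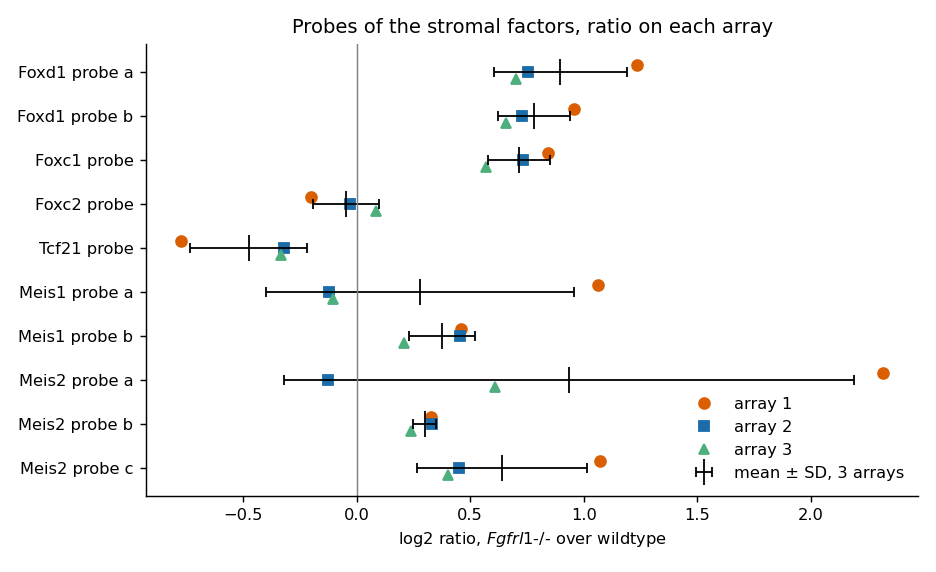
Log2 ratio of Fgfrl1-/- over wildtype (x axis) of each stromal factor probe (y axis) on arrays 1, 2 and 3 (symbols), with the mean and SD over the 3 arrays (black). Both Foxd1 probes and the Foxc1 probe lay between 0.57 and 1.23 on every array, Tcf21 lay below 0 on every array, and Meis1 probe a and Meis2 probe a were high on array 1 and not on array 2.

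The Foxd1 message was read by 2 probes. At probe a, the level in the Fgfrl1-/- pools was 14.46, 15.03 and 14.94 on arrays 1, 2 and 3, against 13.23, 14.27 and 14.24 in the wildtype pools. All Fgfrl1-/- pools lay above all wildtype pools, the lowest of the former 0.19 above the highest of the latter, and array 1 was the lowest in both genotypes. The ratios were 1.23, 0.75 and 0.70, with a mean of 0.90 ± 0.29 (SD, n = 3), or 1.86-fold with a 95% interval of 1.51 to 2.30. With an adjusted p = 0.0570 in the limma fit, probe a missed the threshold that probe b passed.

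At Foxd1 probe b, the level was 14.21, 14.51 and 14.27 in the Fgfrl1-/- pools and 13.25, 13.79 and 13.61 in the wildtype pools. The genotypes were separate here too. The ratios were 0.96, 0.73 and 0.66, with a mean of 0.78 ± 0.16 (SD, n = 3), a 95% interval of 1.48- to 1.997-fold and an adjusted p = 0.0419 in the limma fit. The probes differed by 0.28, 0.026 and 0.045 on arrays 1, 2 and 3, with a mean of 0.12 ± 0.14 (SD, n = 3), and they read neighbouring stretches of the same message, so they are not independent.

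The Foxc1 probe gave levels of 13.34, 14.03 and 13.92 in the Fgfrl1-/- pools and of 12.503, 13.30 and 13.35 in the wildtype pools. The highest wildtype pool, on array 3, and the lowest Fgfrl1-/- pool, on array 1, met at about the same level, so the genotypes touched over all arrays while they differed in the same direction on each one. The ratios were 0.84, 0.73 and 0.57, with a mean of 0.71 ± 0.14 (SD, n = 3), a 95% interval of 1.42- to 1.89-fold and an adjusted p = 0.0429 in the limma fit.

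Foxc2, the closest relative of Foxc1, gave a mean ratio near 0. Its level was 13.09, 13.55 and 13.65 in the Fgfrl1-/- pools and 13.29, 13.57 and 13.56 in the wildtype pools. The genotypes overlapped, and the sign of the ratio varied, at -0.20, -0.027 and 0.087. The mean was -0.048 ± 0.15 (SD, n = 3), with an adjusted p = 0.856 in the limma fit, and the 95% interval of the ratio reached from 0.836 to 1.12. The Foxc1 ratio exceeded the Foxc2 ratio by 1.04, 0.76 and 0.48 on arrays 1, 2 and 3, with a mean difference of 0.76 ± 0.28 (SD, n = 3). The difference had the same sign on each array. Its exact 2-sided sign-flip p was 0.25, the smallest that 3 arrays allow, and 0.50 after adjustment over the 8 pairs of probes compared.

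**Figure D2:**
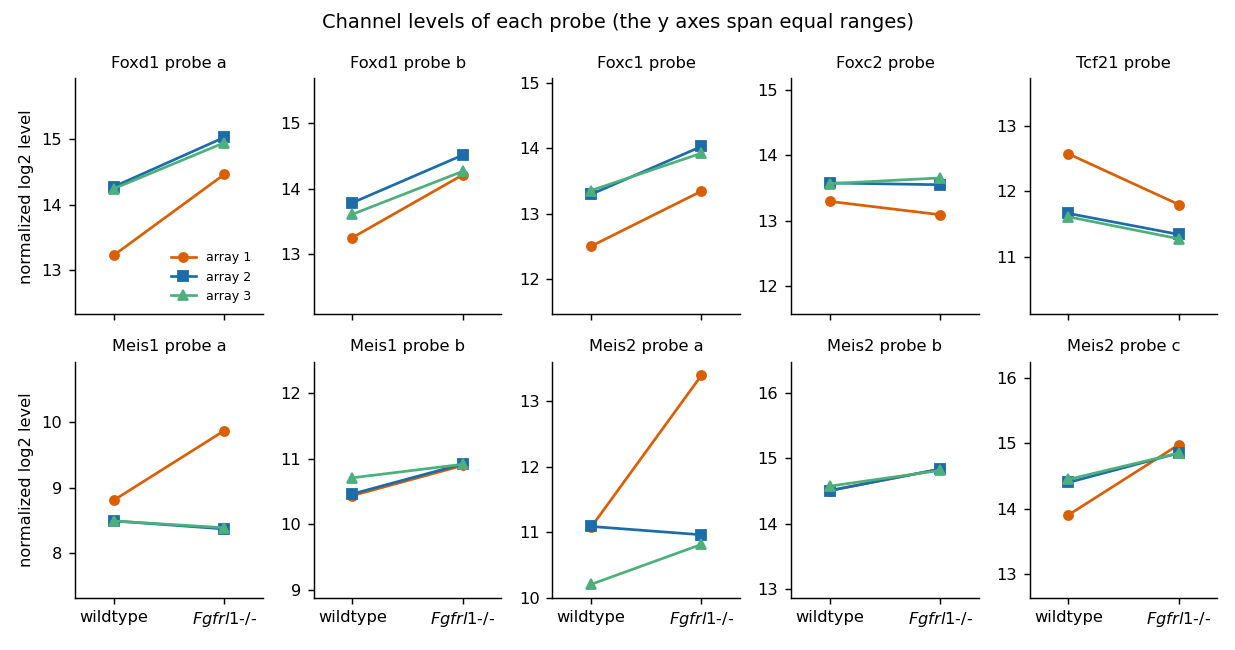
Normalized log2 level (y axis, of equal span in every panel) of each stromal factor probe in the wildtype and the Fgfrl1-/- channel, with a line for each array. The lines of both Foxd1 probes and of Foxc1 rose from wildtype to Fgfrl1-/- on all 3 arrays, those of Foxc2 were nearly flat, and those of Tcf21 went down; at Meis2 probe a, array 1 reached 13.39 in the Fgfrl1-/- pool while the other pools lay at 11.08 or below.

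Tcf21 was the only one of the 6 factors with a lower ratio on all 3 arrays, a sign pattern found at 19.3% of all probes with a value on each array. The level was 11.80, 11.34 and 11.28 in the Fgfrl1-/- pools and 12.57, 11.66 and 11.61 in the wildtype pools. The genotypes overlapped, because both pools of array 1 lay above those of arrays 2 and 3. The ratios were -0.77, -0.32 and -0.34, with a mean of -0.48 ± 0.26 (SD, n = 3). The adjusted p of 0.127 in the limma fit missed the threshold, and the 95% interval, not adjusted for the number of probes, was 0.592 to 0.873 of the wildtype level.

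The 2 Meis1 probes differed on each array, probe a minus probe b being 0.60, -0.58 and -0.31 on arrays 1, 2 and 3. Probe a gave levels of 9.87, 8.37 and 8.39 in the Fgfrl1-/- pools and of 8.81, 8.49 and 8.49 in the wildtype pools, with ratios of 1.06, -0.12 and -0.10. A single Fgfrl1-/- pool, that of array 1, lay above the others. The mean of 0.28 ± 0.68 (SD, n = 3) had an adjusted p = 0.675 in the limma fit and a 95% interval of 0.792- to 1.86-fold. Probe b gave levels of 10.90, 10.92 and 10.91 in the Fgfrl1-/- pools and of 10.44, 10.46 and 10.71 in the wildtype pools. These did not overlap. The ratios of probe b were 0.46, 0.46 and 0.21, with a mean of 0.37 ± 0.15 (SD, n = 3), a 95% interval of 0.16 to 0.58 on the log2 scale and an adjusted p = 0.119 in the limma fit.

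For Meis2, the neighbouring probes b and c had higher levels in all Fgfrl1-/- pools than in any wildtype pool. Probe b gave 14.83, 14.83 and 14.81 in the Fgfrl1-/- pools and 14.51, 14.50 and 14.57 in the wildtype pools. Its ratios of 0.33, 0.33 and 0.24 had the smallest spread among the 10 probes, with a mean of 0.30 ± 0.051 (SD, n = 3) and an adjusted p = 0.125 in the limma fit. Probe c gave 14.98, 14.85 and 14.85 in the Fgfrl1-/- pools and 13.91, 14.40 and 14.45 in the wildtype pools, with array 1 lowest in the wildtype. Its ratios were 1.07, 0.45 and 0.40, with a mean of 0.64 ± 0.37 (SD, n = 3), a 95% interval of 1.21- to 2.01-fold and an adjusted p = 0.122. The ratio of probe b minus that of probe c was -0.75 on array 1 and -0.12 and -0.16 on arrays 2 and 3, so the probes stood apart mainly on array 1.

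Meis2 probe a had the highest mean ratio of the 10 probes and the least stable one. Its level was 13.39, 10.96 and 10.81 in the Fgfrl1-/- pools and 11.07, 11.08 and 10.20 in the wildtype pools. The ratios of 2.32, -0.13 and 0.61 gave a mean of 0.93 ± 1.26 (SD, n = 3), with an adjusted p = 0.397 in the limma fit and a 95% interval of 0.887- to 4.12-fold. The value rests on array 1, without which the mean was 0.24. Array 1 also gave the highest of the 3 ratios at both Foxd1 probes, Foxc1, both Meis1 probes and Meis2 probe c. The share of probes well above background in the Fgfrl1-/- channel was highest there, at 80.2%, and its part in these ratios was not tested.

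Over all 10 probes, 6 were higher on all 3 arrays, a sign pattern of 19.1% of all probes, and 1 was lower. The channel levels of the genotypes did not overlap at 5 probes, those of Foxd1, Meis1 probe b, and Meis2 probes b and c, all higher in Fgfrl1-/-; over all probes the share was 6.76% higher and 7.18% lower. In the order of all 41174 mean ratios from the highest, Foxd1 probes a and b stood at place 35 and 77, Foxc1 at place 130, Meis2 probe a at place 22 and Meis2 probe c at place 198. Meis1 probe b stood at place 1251, Meis2 probe b at place 2123, Meis1 probe a at place 2458, Foxc2 at place 27164 and Tcf21 at place 40711. These places are a description of the 3 arrays, since probes of a gene share their source.

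**Figure D3:**
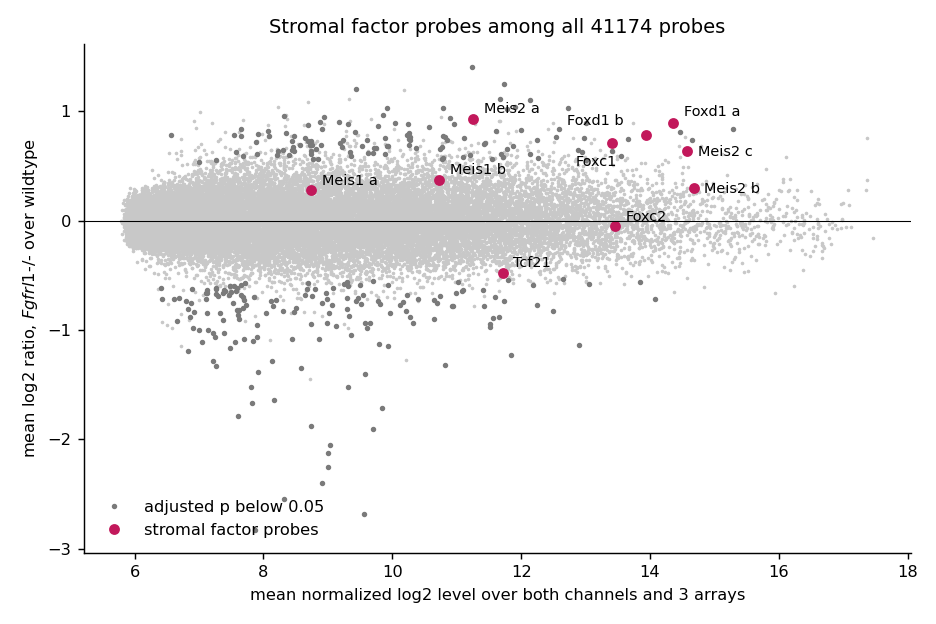
Mean log2 ratio of Fgfrl1-/- over wildtype (y axis) against the mean normalized log2 level over both channels and the 3 arrays (x axis) for all 41174 probes (light grey), those with an adjusted p below 0.05 (dark grey), and the stromal factor probes (red). The Foxd1 and Foxc1 probes lay at the upper edge of the bright probes, Foxc2 near 0 and Tcf21 toward the lower edge.

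The ratios of arrays 2 and 3, the pair that shared a slide, were closer to each other than to array 1 at most of these probes. Without array 1, the mean ratio was 0.73 at Foxd1 probe a, 0.69 at Foxd1 probe b and 0.65 at Foxc1, and array 1 alone gave 1.23, 0.96 and 0.84, so that the ratio was positive on both slides. The adjusted p in the limma fit of arrays 2 and 3 was 4.49e-05, 6.69e-05 and 0.000131. These p-values measure the spread within the shared slide and not between slides. With a single value per slide, the adjusted p in the limma fit was 0.411 at each of these probes. In the fit of arrays 2 and 3, 6 of the 10 probes were called higher, where 8.49% of all probes were. In the same fit 1 probe, Tcf21 at -0.33 with an adjusted p = 0.00772, was called lower, where 10.1% were. Without array 2 or without array 3, 0 of the 10 were called, with an unadjusted p below 0.05 at 7 in each fit. The calls for Foxd1 probe b and Foxc1 thus stood close to the threshold and depended on the arrays and the processing. With median centring in place of loess, the adjusted p in the limma fit was 0.831 at Foxd1 probe b and 0.883 at Foxc1. Foxd1 probe b was called in 3 of 14 other ways to process the data that gave it a value. Foxc1 was called in 3 of 15. The mean ratio of both probes kept its sign in all these ways. Several of them left the ratios unchanged or averaged ratios that were positive on each array, so they could not turn the sign.

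Median centring in place of loess gave a lower mean ratio at each of the 10 probes. On array 2, the raw median signal of Foxd1 probe a was 21461 in the Fgfrl1-/- channel and 34865 in the wildtype channel, over backgrounds of 29 and 49, so the positive ratio of that array arose after normalization. The same held on array 3 at this probe, and on arrays 2 and 3 at Foxd1 probe b and Foxc1. On array 1, the raw signal of these probes was higher in the Fgfrl1-/- channel. With median centring the mean ratio was 0.41 at Foxd1 probe a, 0.31 at Foxd1 probe b, 0.28 at Foxc1, -0.49 at Foxc2 and -0.82 at Tcf21. At Meis2 probe b it was -0.21, the opposite sign. Under the same centring, the 1000 probes nearest in brightness to each of the 10 had median ratios from -0.48 to -0.15. Relative to these neighbours, Foxd1 probe a stood at 0.88, probe b at 0.76, Foxc1 at 0.71, Foxc2 at -0.054, Tcf21 at -0.49, Meis1 probe b at 0.38, Meis2 probe b at 0.27 and Meis2 probe c at 0.62, each at most 0.030 from its loess value. Loess too centres ratios by brightness, so this closeness was set by the method and is no separate support for the loess values.

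**Figure D4:**
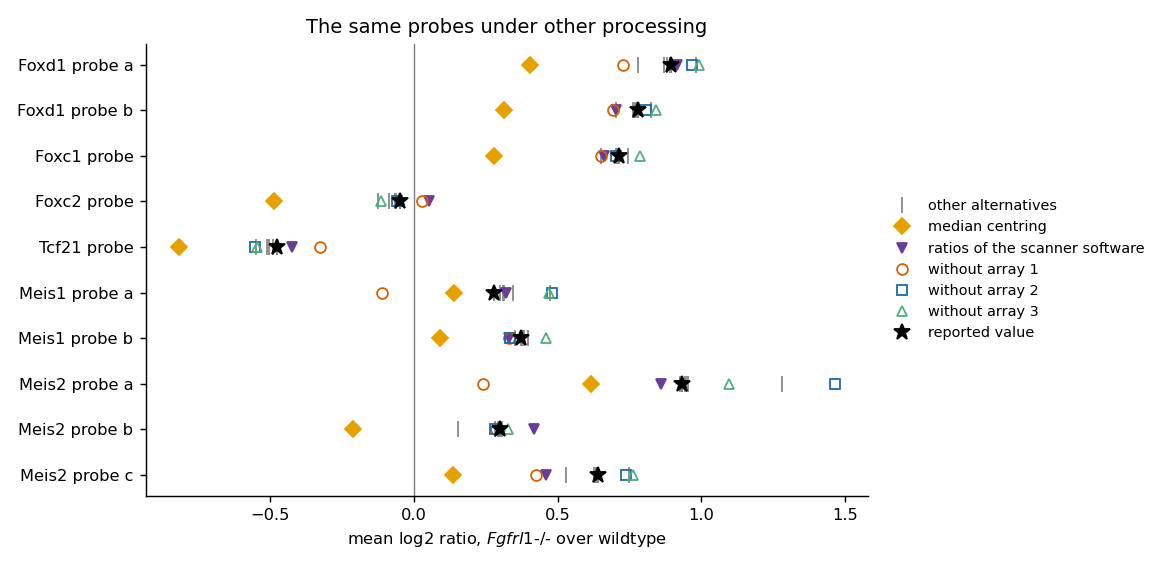
Mean log2 ratio of Fgfrl1-/- over wildtype (x axis) of each stromal factor probe (y axis) as reported (star), with median centring, with the scanner software's ratios, without each array, and in the other alternatives (ticks). Foxd1 and Foxc1 stayed above 0 and Tcf21 below 0 in every one, while Foxc2, Meis1 probe a and Meis2 probe b crossed 0 in at least 1. For Foxd1, Foxc1 and Tcf21, the alternatives that kept the ratios unchanged or only left out an array could not cross 0.

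Other genes of the same families and marker genes of the cell types in the rudiment were read from lists, each gene by its brightest probe. Over all 19772 genes the median ratio was 0.0071, with 92 genes called higher (0.465%) and 123 called lower (0.622%) in the limma fit. An unadjusted p below 0.05 was found at 11.1% of all genes in the higher and at 9.61% in the lower direction. Of 20 other renal stroma markers, 3 were called higher and 0 lower, the median was 0.34, and 15 of them had a positive ratio. At least 1 channel was well above background on all arrays for 18 of the 20, and Foxf1 was above it in neither channel on any array. Pdgfra, a receptor of stromal and fibroblast cells, gave 1.02 ± 0.093 (SD, n = 3), the collagen gene Col1a1 gave 0.84 ± 0.18 and the chemokine gene Cxcl12 gave 0.74 ± 0.12. These are ratios of the arrays alone, and no second measure of these messages is given here. The lowest, at -0.31 ± 0.034, was Lox, which crosslinks collagen. Fat4, an atypical cadherin of the stroma, gave 0.73 ± 0.30 and missed the threshold with an adjusted p = 0.0827. An unadjusted p below 0.05 was found at 10 of the 20 in the higher direction and at 1 in the lower. The median was 0.22 without array 1, where 10 were called higher and 3 lower, and 0.089 with median centring.

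**Figure D5:**
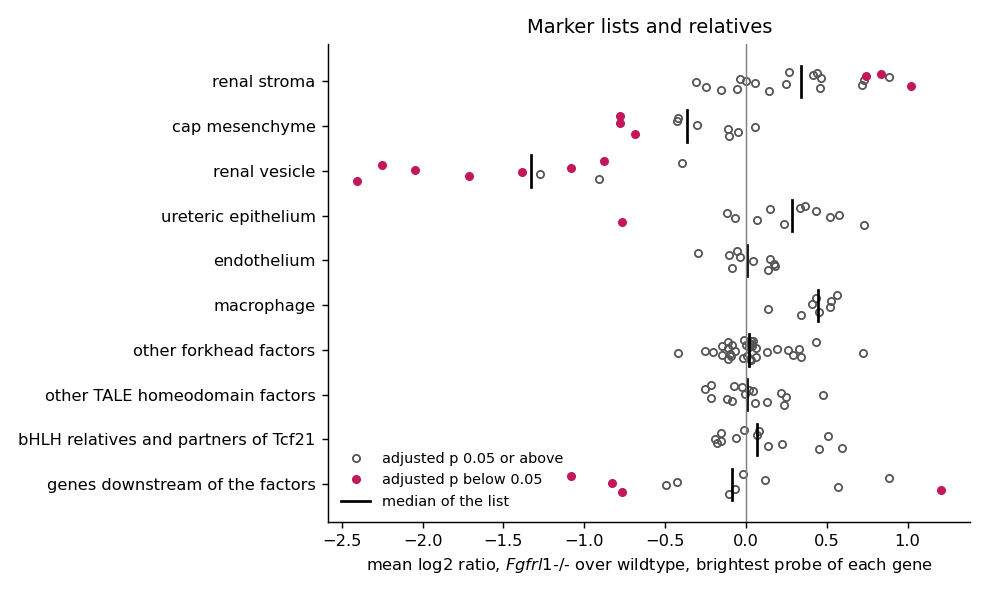
Mean log2 ratio of Fgfrl1-/- over wildtype (x axis) of the genes in each marker or family list (y axis), each by its brightest probe, with the list's median (black line) and genes with an adjusted p below 0.05 filled in red. Renal stroma lay mostly above 0 with a median of 0.34, renal vesicle below 0 with a median of -1.33, and the forkhead, TALE and bHLH lists around 0.

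The markers of other cell types are given beside these. Of 10 renal vesicle markers, 7 were called lower and 0 higher, with a median of -1.33, the largest falls being those of Wnt4 (-2.40), Dkk1 (-2.25), Fgf8 (-2.05) and Lhx1 (-1.72), and the smallest ratio in size that of Ccnd1 (-0.40). Earlier results of these same arrays already had most of these genes lower, so this list is no independent reading of the cell type. Of 10 cap mesenchyme markers, 3 were called lower, Cited1 (-0.78), Itga8 (-0.78) and Tmem100 (-0.68), while the highest, Osr1, gave 0.054 and the median was -0.36. Of 12 ureteric epithelium markers, the tip gene Wnt11 (-0.76) was called lower, the highest was Wnt9b (0.73, adjusted p = 0.0661), and the median was 0.29. In this list 9 genes had a positive ratio, with an unadjusted p below 0.05 at 7 in the higher direction and at 1 in the lower. With an array left out, from 0 to 7 ureteric epithelium markers were called higher. Without array 1, 10 renal vesicle markers and 6 cap mesenchyme markers were called lower, and without array 2 or without array 3 none was. With median centring the cap mesenchyme median was -0.65. Summed over a list, the log2 level on the 3 arrays was 17.41 to 17.81 in Fgfrl1-/- and 17.01 to 17.15 in wildtype for renal stroma, 12.49 to 12.88 against 13.56 to 13.84 for renal vesicle, 14.51 to 14.70 against 14.98 to 15.004 for cap mesenchyme, and 15.36 to 15.75 against 15.08 to 15.31 for ureteric epithelium. None of these sums overlapped between the genotypes, as was the case for 9 of the 15 lists read, and their part in the Foxd1 and Foxc1 ratios was not tested. A sum is set mainly by the brightest genes of a list, so it does not show that the list moved as a whole.

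Of 8 macrophage markers, all had a positive ratio, with a median of 0.45, from Mrc1 at 0.14 to Adgre1 at 0.57, and their summed log2 level was 11.49 to 11.97 in Fgfrl1-/- against 11.20 to 11.30 in wildtype. In the limma fit 0 of them were called, with an unadjusted p below 0.05 at 7, and without array 1 the number called higher was 6. Of 10 endothelial markers 0 were called, with a median of 0.0048, an unadjusted p below 0.05 at 1, and a range from Cldn5 at -0.30 to Sox17 at 0.18. The steroidogenic, skeletal muscle, neural, erythroid, and coelomic and gut lists had medians of -0.13, -0.018, -0.083, -0.10 and 0.24, with 0 genes called in each and an unadjusted p below 0.05 at 1, 1, 1, 2 and 1 of their genes. The summed log2 level did not overlap between Fgfrl1-/- and wildtype for the erythroid list (15.74 to 15.83 against 15.91 to 16.09), the neural list (10.80 to 11.02 against 11.14 to 11.37) and the coelomic and gut list (9.39 to 9.89 against 9.18 to 9.30). The part of these cells in the stromal factor ratios was not tested.

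Other members of the factors' families were read in the same way. Of 35 other forkhead genes on the array, 0 were called in the limma fit, with an unadjusted p below 0.05 at 7 in the higher and 2 in the lower direction, and the median ratio was 0.018. In this list 9 genes were well above background on no array in either channel. The highest was Foxn3 at 0.72 ± 0.65 (SD, n = 3), with an adjusted p = 0.227, and the lowest Foxn2 at -0.42 ± 0.64. Both Foxn3 and Foxn2 had their highest ratio on array 1.

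Of 16 other TALE homeodomain genes, again 0 were called, with an unadjusted p below 0.05 at 4 in the higher and 2 in the lower direction, and the median was 0.0073. The summed log2 level of the TALE list was 15.54 to 15.65 in Fgfrl1-/- and 15.32 to 15.39 in wildtype, without overlap. Irx4 was the lowest at -0.25 ± 0.13 (SD, n = 3). Of 13 relatives and partners of Tcf21 among the bHLH genes, 0 were called, with an unadjusted p below 0.05 at 3 in the higher direction, and the median was 0.066. Twist1, a mesenchymal bHLH factor, was the highest at 0.59 ± 0.20, with an adjusted p = 0.0779, and the E protein gene Tcf12 the lowest at -0.19 ± 0.18.

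Of 12 genes known from other work to change when one of the 6 factors is lost, 1 was called higher and 3 lower, and the median ratio was -0.087. These counts were 3 and 5 without array 1, and 0 without array 2 or without array 3. Tbx1, a T-box factor of the early mesoderm, was higher, with ratios of 1.09, 1.21 and 1.33, a mean of 1.21 ± 0.12 (SD, n = 3) and an adjusted p = 0.0259 in the limma fit. The lower ones were the chemokine receptor gene Cxcr4 at -1.08 ± 0.21, Gdnf, the growth factor that draws out the ureteric bud, at -0.83 ± 0.18, and Wnt11 at -0.76 ± 0.13. Dcn, the matrix proteoglycan decorin, gave 0.89 ± 0.27 and missed the threshold with an adjusted p = 0.0527. The probe of Ret was well above background on no array in either channel. This list has no single expected direction, and Wnt11, Eya1, Ret, Wt1 and Dcn also stand in marker lists.

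The genes whose pattern was most like that of each factor were sought among 13175 genes well above background in both channels on all arrays, by Pearson's r over the 6 channel values, which come from 3 arrays and so share the differences between arrays. For Foxd1 probe a they were Gmeb1 (r = 0.998, mean ratio 0.42) and Slc25a11 (r = 0.998, 0.38). For Foxc1 they were G6pc2 (r = 0.998, 0.87) and Rnf43 (r = 0.995, 0.33). For Foxc2 they were Herpud1 and Kcna5 (both r = 0.999), and for Tcf21 Plcl2 (r = 0.999) and H3f3a (r = 0.998). For Meis1 probe b they were Sox4 (r = 0.995, 0.57) and Fam102b (r = 0.989, 0.21), and for Meis2 probe b Jund (r = 0.998, 0.44) and Itgb5 (r = 0.997, 0.38). With 6 values and so many genes, likeness of this degree is a description only.

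The bases before the RefSeq start of Foxd1 and of Foxc1 are shown because their probes were the ones called higher. They come from RefSeq on build GRCm38.p6, which differs from that of the probe positions. Promoters of 5 of the 6 factors were matched by symbol, and that of Foxc2 was not. In the 250 bases before the start, 3 motifs bound by such factors were sought on both strands, the forkhead motif GTAAACA, the Meis motif TGACAG and the E-box CAGCTG, together with the GC box GGGCGG. The capitals mark a match of the first 3, of which Foxd1 had 1, a TGACAG that begins 50 bases before the start, and Foxc1 had none.
Foxd1, GRCm38.p6, chr13:98353995-98354244, plus strand: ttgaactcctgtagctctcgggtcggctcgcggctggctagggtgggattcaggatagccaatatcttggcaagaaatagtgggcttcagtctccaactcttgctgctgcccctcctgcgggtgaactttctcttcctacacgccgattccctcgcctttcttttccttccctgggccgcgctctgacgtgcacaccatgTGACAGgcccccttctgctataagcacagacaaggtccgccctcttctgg
Foxc1, GRCm38.p6, chr13:31806396-31806645, plus strand: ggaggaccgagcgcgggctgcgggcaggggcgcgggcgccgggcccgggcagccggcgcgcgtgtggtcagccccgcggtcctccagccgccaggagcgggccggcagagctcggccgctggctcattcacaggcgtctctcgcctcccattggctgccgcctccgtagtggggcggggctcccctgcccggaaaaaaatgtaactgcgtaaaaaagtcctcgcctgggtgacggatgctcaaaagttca

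TGACAG was found in 15.9% of 32851 promoters of this length, GTAAACA in 3.17%, CAGCTG in 13.0% and GGGCGG in 32.7%. Foxd1 and Foxc1 each held 1 GC box. The promoters of Tcf21, Meis1 and Meis2 held none of these motifs in the window. The GC content was 57.2% for Foxd1, 70.8% for Foxc1, 52.4% for Tcf21, 59.6% for Meis1 and 47.6% for Meis2, beside a median of 52.4% over all promoters. A match in this window is a description of its letters, and the arrays measured no binding.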

How the data were processed

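The deposited scanner files came from Agilent Feature Extraction. Per the file headers its version was 9.5.3.1 on array 1 and 10.5.1.1 on the others, whereas the submitters' notes name version 10. The software made the deposited intensity values, a median brightness for spot and background and a processed signal, from the scanned images. The log10 ratio in these deposited files is that of wildtype over Fgfrl1-/-, and its sign was turned. A further table by the authors gives log2 ratios of each probe, whose steps are not given in the sources used here. Its direction, Fgfrl1-/- over wildtype, and its centring near 0, with medians of -0.018, 0 and 0.003, were found by comparison with the scanner ratios.

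Median signals were corrected by normexp with an offset of 50 and normalized by loess within arrays in limma 3.58.1 (R 4.3.3), with control spots at weight 0. Outlier spots were left out and spots of a probe averaged. The log2 ratio was tested against 0 by a 2-sided moderated test (lmFit, eBayes), adjusted over all 41174 probes by the method of Benjamini and Hochberg. Channel levels were taken after Aquantile scaling between arrays. Intervals are those of the moderated test. The fit was tested on simulated data. The number of arrays limits the precision.

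Genes were named through RefSeq (33253 probes assigned). The members and lists were chosen with earlier results of these data known. The text names every probe of the 6 factors, Fgfrl1, in each list the called genes (at most 4 in a direction) with its highest and lowest gene, and 2 genes most like each factor. One gene that this rule names is not reported here. Fat4 and Dcn were named after their values were seen. The alternatives were no background subtraction, median centring, an offset of 0, the ratios of the scanner software, quantile normalization, dim probes left out, outlier spots kept, 1 probe for each gene name, eBayes with a trend, a separate-channel fit, the authors' ratios, a single value per slide, and each array left out. The comparison with probes of like brightness was added after the data were seen.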

Additional observations from a re-analysis of the deposited data

How the results depend on the processing

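Of the 10 stromal factor probes, Foxd1, Foxc1, Tcf21, Meis1 probe b, and Meis2 probes a and c kept their sign in all 15 alternatives run that gave them a value. Several alternatives left the ratios unchanged, and leaving out an array cannot turn a sign shared by all arrays, so these could not turn it. Meis2 probe a was negative on array 2, and its mean ranged from 0.24 to 1.47 with an array left out. Foxc2 turned to 0.054 with the scanner software's ratios, and with an array left out it ranged from -0.12 to 0.030. With an array left out, Meis1 probe a ranged from -0.11 without array 1 to 0.48. Meis2 probe b turned to -0.21 with median centring. The cause was not tested. A fit with the slide as random block was planned and gave no value, since its correlation could not be estimated.

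Of the 2 stromal factor probes called higher in limma, Foxc1 stayed called with 1 probe per gene name (adjusted p = 0.0389 in the limma fit). Foxd1 probe b was not tested there, since the brighter probe a stood for its gene. In the separate-channel fit the number called higher was 1, that of Foxd1 probe b. The number was 0 with no background subtraction, median centring, an offset of 0, the ratios of the scanner software, quantile normalization, dim probes left out, eBayes with a trend and robust variances, the authors' ratios and a single value per slide, with an unadjusted p below 0.05 at 2 to 8 of the 10 probes. It ranged from 0 to 6 when an array was left out, with 6 without array 1, and the number called lower ranged from 0 to 1.

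Of all probes, 119 were called higher and 164 lower, so that 42.0% of calls were higher. With median centring the counts were 2 and 91, and the share was 2.15%, while the median of all probes moved from 0.0037 to 0.042. No background subtraction gave 72 higher. The counts higher and lower were 22 and 60 with quantile normalization, 7 and 34 with dim probes left out, 4 and 32 with the authors' ratios, and 0 and 6 with eBayes with a trend, where 5551 probes had an unadjusted p below 0.05. Both were 0 with an offset of 0, with the scanner software's ratios and with a single value per slide, where an unadjusted p below 0.05 was found at 4852, 6118 and 3449 probes. The separate-channel fit gave 226 higher. With an array left out, they ranged from 0 to 3494 higher and from 0 to 4172 lower. Both were 0 without array 2 and without array 3, with 3712 and 3141 probes at an unadjusted p below 0.05.

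The Fgfrl1 probe missed the threshold at -1.68 with an offset of 0, -1.83 with the scanner software's ratios, -1.52 with eBayes with a trend and -1.44 with a single value per slide. When an array was left out it ranged from -1.67 to -1.36, past the threshold without array 1 only. The ratio within an array already pairs 1 Fgfrl1-/- pool with 1 wildtype pool, so no further replicate block was fitted. With 3 arrays and no dye swap, small differences and dye effects cannot be resolved.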
